A study of Homo sapiens with 30 samples.

Results

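KB742 and KI-ARv-03, a pair of selective inhibitors of the kinase CDK9, were set against each other after 8 h in the human prostate cancer line 22Rv1, which is castration-resistant. The members are the 3 libraries titled KB742 at 1.2 µM and the 3 titled Karv3 at 4 µM, both at 8 h, and they make up 6 of the 30 libraries in the series. The question is how closely the RNA of cells given one inhibitor matches that of cells given the other. All cells were first kept for 30 min in medium with 800 µM 4-thiouridine (s4U), a uridine analog that enters new RNA. The medium was then changed for one that held 800 µM s4U with a compound or DMSO, the solvent, and 3 DMSO libraries at 8 h served as the controls. A group of 3 libraries was taken at 0 h, after the 30 min, and the same compounds were also sampled at 2 and 4 h. Karv3 is read here as KI-ARv-03, which the extraction protocol names at the same dose. Some label fields give DMSO as the treatment of all samples, those with a compound included, and groups therefore follow the titles. For KB742 the titles and the extraction protocol give 1.2 µM but the treatment field of all 9 samples reads 12 µM. The lower dose is used here, and the labels do not settle which was given. In the same field 8 of 9 libraries with 4 h in the title are given as 2 h, and there too the title was followed. The compounds were given at different doses, and every difference below is between a compound at its dose and the other at its dose. Nothing says whether the 3 libraries of a group came from separate cultures, so p-values measure only the spread between these libraries.

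CDK9 with a cyclin T forms P-TEFb, the kinase that phosphorylates RNA polymerase II and its pausing factors and so lets paused polymerase move into the gene body. Blocking it stops the making of new RNA at most genes, and RNAs that decay quickly, such as those of immediate early regulators and of MCL1, are the first to run down.

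Each gene has a measure of RNA level and, where enough reads covered it, a measure of labelling. The level is the rescaled CPM, the share of a library's reads on a gene after scaling for composition, so it says nothing of RNA per cell. In the 6 libraries 1 read was worth 0.400 to 0.740 CPM. Labelling is the conversion level, the T-to-C conversion that s4U leaves in reads, in percent. Since s4U stayed in the medium, it adds up over the 8 h. The 6 libraries held 3376884 to 5965555 reads, 1520192 to 2885002 of them on the gene rows used, and 12263 to 13398 genes were detected in each. Markers of luminal prostate cells were present (10 of 10 tested). The summed level of these 10 was 1383 to 1558 CPM with KB742 and 1432 to 1444 with KI-ARv-03. KRT5, KRT14 and TP63, which mark basal cells, had 0 reads in all 6 libraries, as had the endothelial markers PECAM1, CDH5 and VWF.

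At 8 h no gene was called different in level between KB742 and KI-ARv-03. Of 11425 genes tested with limma, 0 (0%) had a Benjamini-Hochberg adjusted p under 0.05, and 240 (2.1%) had an unadjusted p under 0.05. On the recovered reads edgeR called 0 genes (184 at an unadjusted p under 0.05) and DESeq2 called 0 (204). The estimates lay close together: 11171 genes (97.8%) were estimated within 2-fold of each other and 9735 (85.2%) within 1.5-fold, and the median absolute log2 difference was 0.26. The spread between libraries leaves room for differences, however. A 95% interval that lay wholly within 2-fold was reached by 4117 genes (36%), and one within 1.5-fold by 401 (3.51%).

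How much was settled depended on the level of the gene. In the highest tertile by level (3808 genes, above 42.3 CPM), the interval of 62.5% lay within 2-fold. In the middle tertile it did so for 38.1% and in the lowest (3810 genes) for 7.53%. The median half-width of the interval was 0.67 on the log2 scale in the highest tertile and 1.06 in the lowest. So the data bound the difference to under 2-fold for most abundant RNAs and for few scarce ones.

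**Figure D1:**
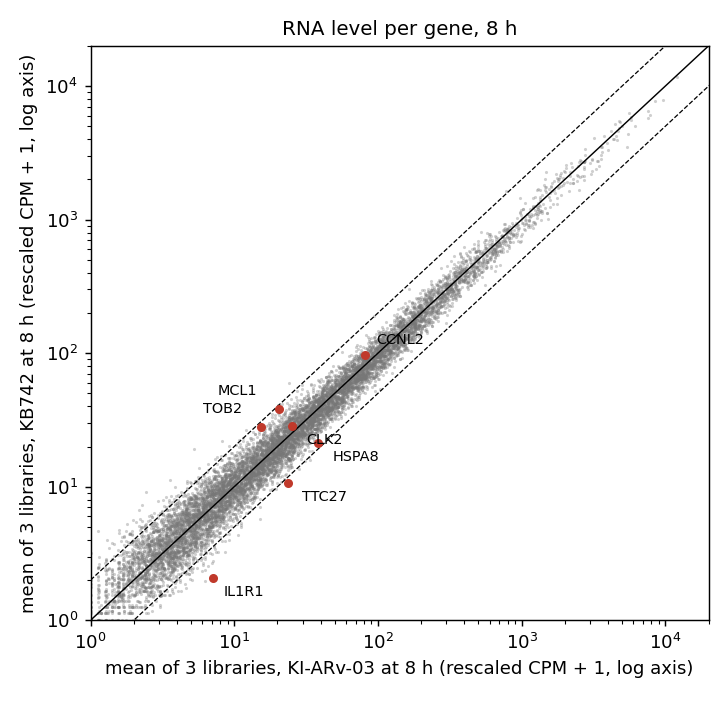
Mean level of each of 11425 genes in the 3 KB742 libraries (vertical) against the 3 KI-ARv-03 libraries (horizontal) at 8 h, in rescaled CPM + 1 on log axes, with lines at equality and at 2-fold. Genes lie along the diagonal and spread out at low levels, where 1 read is worth 0.400 to 0.740 CPM, and 7 genes described in the text are marked.

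The 6 libraries did not sort by compound. Over the 5876 genes with a mean above 20 CPM, replicate 1 of KI-ARv-03 had a Pearson correlation of log2 levels of 0.986 with replicate 1 of KB742. Replicate 2 of KI-ARv-03 had 0.980 with replicate 2 of KB742, and replicate 3 of KI-ARv-03 had 0.972 with replicate 1 of KB742. Libraries of the same compound correlated at 0.766 to 0.963, and the lowest value was between replicates 2 and 3 of KI-ARv-03. These are correlations across genes, which are not independent replicates.

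The split followed the GC content of the 3′ end, the stretch these libraries read. For 11305 genes (98.9%) the GC content of the last 300 bases of the transcript was known. In the quartile richest in GC, the median deviation of log2 level was 0.60 in replicate 2 of KI-ARv-03, 0.33 in replicate 2 of KB742 and 0.21 in replicate 3 of KB742. It was -0.46 in replicate 3 of KI-ARv-03, -0.49 in replicate 1 of KB742 and -0.13 in replicate 1 of KI-ARv-03. These deviations are from the gene's mean over the 3 libraries of the same compound, so libraries on both sides are built in. The difference between the compounds moved with GC content: its median was -0.19 in the quartile poorest in GC and 0.24 in the richest. A correction for GC within each library brought these medians to -0.01 and 0.00, which its construction forces. With it 0 genes were called, and 5259 genes had an interval within 2-fold. The part of GC content in the results below was tested only by that correction.

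**Figure D2:**
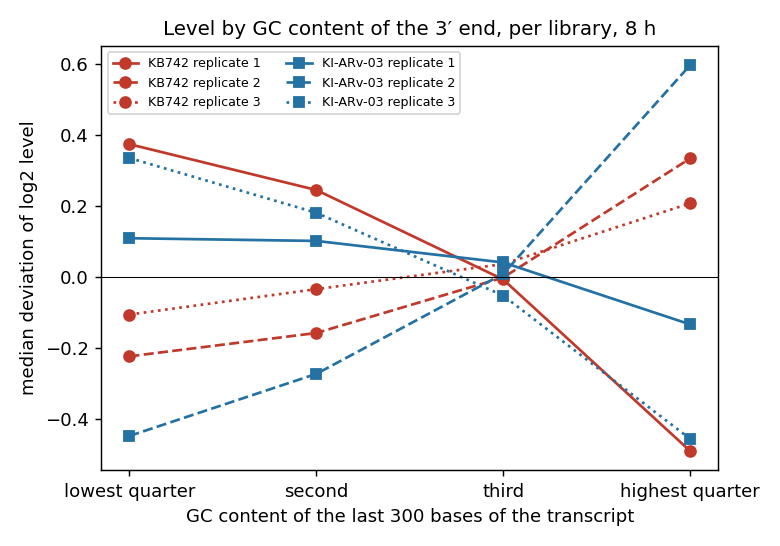
Median deviation of log2 level (vertical) in quartiles of genes by GC content of the last 300 bases (horizontal), 1 line per library. Deviations are from the gene's mean over the 3 libraries of the same compound, so each compound has slopes both ways by construction. Replicate 2 of KI-ARv-03 reaches 0.60 in the richest quartile and replicate 1 of KB742 reaches -0.49.

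Against DMSO at 8 h, 514 of 11425 genes (4.5%) were called by the mean of both compounds, 364 (3.19%) higher and 150 (1.31%) lower. With each compound alone, 141 genes (1.23%) were higher and 69 (0.604%) lower with KB742, and 220 (1.93%) and 113 (0.989%) with KI-ARv-03. The direction depends on scaling: 70.8% of the calls were higher here, 88.0% when levels were scaled by library size (720 higher and 98 lower) and 91.1% on the deposited scale (674 and 66). Those scalings put the median of all genes at 0.18 and 0.25 above DMSO, against -0.02 here. The higher calls were 234 without KB742 replicate 1, 235 with a pseudocount of 5 and 204 with edgeR, and the lower calls were 251 after the GC correction.

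Within the 364 higher genes the median difference from DMSO was 1.28 (log2) with KB742 and 1.34 with KI-ARv-03. The compounds differed by a median of -0.07 (0.02 after GC correction), and 194 of these genes (53.3%) had an interval of the difference within 2-fold. Within the 150 lower genes the medians were -1.54 and -1.59. There KB742 was the higher of the compounds in 96 genes (64%), by a median of 0.13 (0.10 after GC correction), and 55 had an interval within 2-fold. Between the compounds 0 genes of either set were called, with 4 of 364 and 10 of 150 at an unadjusted p under 0.05. Over all genes KB742 was the higher in 48.3%, with a median difference of -0.02. Both comparisons with DMSO share the same 3 control libraries, so likeness of the changes from DMSO is partly built in, and the difference between the compounds is not.

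The levels at 0 h place these changes. The genes higher than DMSO were mostly ones that had dropped in the DMSO libraries: 335 of 364 (92%) were called lower with DMSO at 8 h than at 0 h, against 29.1% of all genes, with a median of -1.99 (log2). With KB742 and KI-ARv-03 the same genes had medians of -0.65 and -0.64 against 0 h, and 135 and 130 were called lower (22.2% and 22.5% over all genes), while 4 and 4 were called higher (12.4% and 13.5% over all genes). By their medians they stood between the DMSO level and the 0 h level. The 150 lower genes had a median of 0.00 against 0 h with DMSO, -1.57 with KB742 and -1.72 with KI-ARv-03, and 39 of them (26%) were called higher and 32 (21.3%) lower with DMSO than at 0 h (20% and 29.1% over all genes). The same DMSO libraries took part in choosing both sets, and low DMSO values favor a count such as the 92%. The DMSO medians and calls, and the place of the compounds above or below DMSO, are therefore a description. Time, the new medium and longer s4U separate 0 h from 8 h and cannot be told apart.

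**Figure D3:**
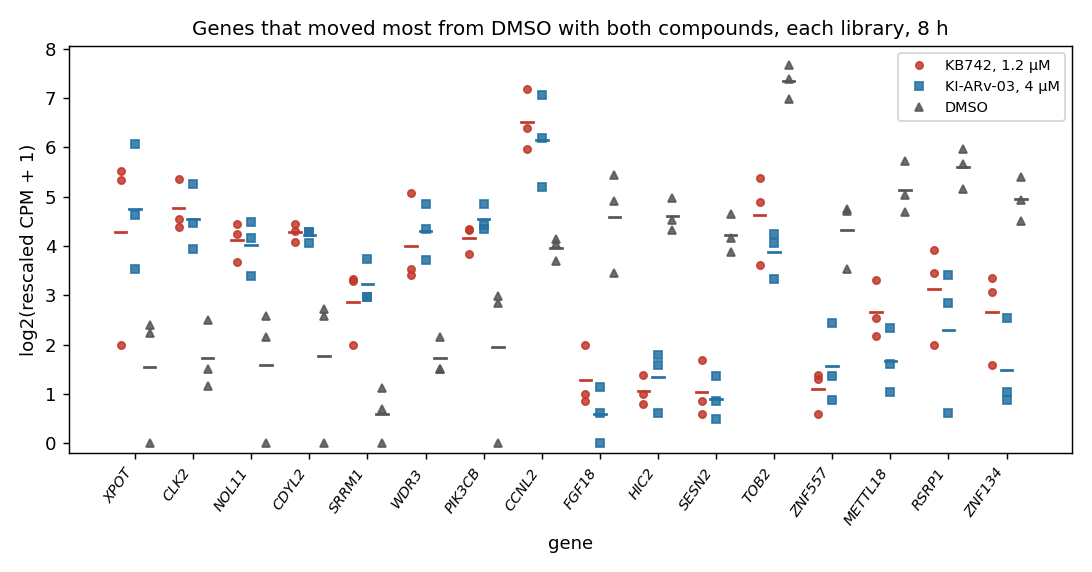
Levels as log2(rescaled CPM + 1) (vertical) of the 8 genes highest and the 8 lowest against DMSO by the mean of both compounds, at 8 h, with 1 point per library and a bar at the mean of the 3. KB742 and KI-ARv-03 points overlap for 7 of the 8 higher and all 8 of the lower genes, and DMSO points lie apart from both in all but XPOT. Overlap between the compounds was not counted over all genes, so these counts do not set these genes apart.

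The promoters of the clearest 4 of these 16 genes, the 2 with the smallest adjusted p in each direction, are shown to place the genes on the genome. Each is the 250 bases before the RefSeq start on GRCh38.p14, 5′ to 3′ on the strand of the gene, with matches to 5 motifs in capitals. TOB2 (chr22:41446802-41447051, minus strand) and FGF18 (chr5:171419397-171419646, plus strand) were lower with both compounds. CCNL2 (chr1:1399336-1399585, minus strand) and CLK2 (chr1:155273505-155273754, minus strand) were higher than DMSO.
TOB2: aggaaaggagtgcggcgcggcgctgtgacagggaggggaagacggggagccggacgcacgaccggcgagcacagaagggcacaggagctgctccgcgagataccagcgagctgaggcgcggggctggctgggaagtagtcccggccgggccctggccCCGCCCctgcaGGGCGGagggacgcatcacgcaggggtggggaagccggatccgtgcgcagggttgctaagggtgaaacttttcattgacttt
FGF18: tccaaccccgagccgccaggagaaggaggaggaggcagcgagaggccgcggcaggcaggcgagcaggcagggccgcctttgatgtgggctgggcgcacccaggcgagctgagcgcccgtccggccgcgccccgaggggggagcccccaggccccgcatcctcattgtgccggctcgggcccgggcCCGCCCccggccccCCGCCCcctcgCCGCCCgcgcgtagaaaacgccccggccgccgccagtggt
CCNL2: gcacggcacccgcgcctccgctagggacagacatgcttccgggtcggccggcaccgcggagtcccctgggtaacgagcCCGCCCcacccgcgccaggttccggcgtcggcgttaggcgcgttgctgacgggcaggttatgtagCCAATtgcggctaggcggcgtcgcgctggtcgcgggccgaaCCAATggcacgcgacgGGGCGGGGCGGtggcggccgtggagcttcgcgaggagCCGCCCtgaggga
CLK2: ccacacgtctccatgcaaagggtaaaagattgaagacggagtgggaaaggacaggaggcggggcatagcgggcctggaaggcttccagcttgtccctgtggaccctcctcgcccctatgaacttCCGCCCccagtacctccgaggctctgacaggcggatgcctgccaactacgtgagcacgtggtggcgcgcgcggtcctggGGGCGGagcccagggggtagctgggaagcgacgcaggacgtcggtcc
The motifs, searched on both strands, were the SP1 GC box GGGCGG, the CCAAT box CCAAT, the TATA box TATAAA, the cAMP response element TGACGTCA and the AP-1 site TGACTCA. All 4 promoters held the GC box, which 42.6% of 35116 promoters of the same length hold. It matched 2 times in TOB2, 3 in FGF18, 4 in CCNL2 and 2 in CLK2. CCNL2 held 2 CCAAT boxes (32.0% of promoters hold one). The other motifs did not match, which says only that these letters are not in this window. The windows were rich in GC, from 65.2% in CLK2 to 78.8% in FGF18.

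TOB2, a member of the BTG/TOB family that restrains proliferation and recruits deadenylases, was at 11.2, 40.6 and 28.9 CPM in KB742 replicates 1 to 3 and at 15.7, 17.9 and 9.06 with KI-ARv-03. With DMSO it was at 126, 167 and 204. Every library with a compound was below every DMSO library, and the compounds overlapped. The mean change from DMSO was -3.10 ± 0.31 (log2 ± SE, limma adjusted p = 1.1e-06). KB742 minus KI-ARv-03 was 0.75 ± 0.36 (interval 0.02 to 1.48, limma adjusted p = 1).

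FGF18, a secreted growth factor, was at 0.801, 1.00 and 2.96 CPM with KB742, at 1.21, 0.527 and 0 with KI-ARv-03 and at 9.90, 28.98 and 42.4 with DMSO. At 0 h it was at 0.0678 ± 0.117 (SD, n = 3), so it rose from 0 h with DMSO (adjusted p = 6.5e-08, limma) and was not called against 0 h with KB742 (0.052) or KI-ARv-03 (0.44). HIC2, a transcriptional repressor, was at 0.740 to 1.60 CPM with KB742, 0.527 to 2.47 with KI-ARv-03 and 19.2 to 30.4 with DMSO. SESN2, a stress protein of the sestrin family that p53 and ATF4 switch on, was at 0.501 to 2.22, 0.412 to 1.58 and 13.6 to 23.9. Both compounds left these RNAs at a few reads per library, and the differences between compounds were 0.69 ± 0.47, -0.27 ± 0.47 and 0.13 ± 0.52.

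METTL18, a histidine methyltransferase, was at 4.81, 3.51 and 8.88 CPM with KB742, at 4.04, 1.05 and 2.06 with KI-ARv-03 and at 24.8, 31.7 and 51.6 with DMSO. KB742 minus KI-ARv-03 was 1.01 ± 0.39 (interval 0.20 to 1.82, limma adjusted p = 1). ZNF134, a zinc finger protein, differed by 1.19 ± 0.49 (interval 0.18 to 2.19), with 9.21, 2.00 and 7.40 CPM against 4.84, 1.05 and 0.824. In both genes the ranges overlapped. Of the 8 genes lowest against DMSO, KB742 was the higher in 6 (48.3% over all genes). An unadjusted limma p under 0.05 was reached by 3 (2.1% over all genes), and an interval within 2-fold by 0 (36%). For the 8 genes highest against DMSO these counts were 4, 0 and 1. So few genes, picked by rank, do not show a lean to either compound. The remaining lower genes, RSRP1 and ZNF557, differed by 0.83 ± 0.56 and -0.47 ± 0.46.

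CLK2, a kinase that phosphorylates SR splicing factors, was at 20.02, 22.5 and 39.95 CPM with KB742, at 21.0, 37.4 and 14.4 with KI-ARv-03 and at 1.24, 4.64 and 1.84 with DMSO. All 6 libraries with a compound were above all DMSO libraries, and the compounds differed by 0.21 ± 0.51. CCNL2, a cyclin linked to pre-mRNA splicing, was at 61.7, 145 and 82.9 CPM with KB742, at 72.3, 133 and 35.8 with KI-ARv-03 and at 16.7, 15.5 and 11.97 with DMSO. In both compounds replicate 2 was the highest, and the difference was 0.36 ± 0.38. At 0 h CLK2 was at 38.2 ± 13.0 CPM and CCNL2 at 70.5 ± 25.4, so both were near their 0 h level with the compounds.

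CDYL2, a chromodomain protein, had like values in all 6 libraries: 18.8, 16.0 and 20.7 CPM with KB742 and 18.6, 15.8 and 18.5 with KI-ARv-03, against 5.57, 5.02 and 0 with DMSO. Its difference between compounds was 0.06 ± 0.43, with an interval of -0.83 to 0.95, the only one of the 8 higher genes within 2-fold. NOL11, a ribosome biogenesis factor, was at 11.8 to 20.8 CPM with KB742 and 9.49 to 21.4 with KI-ARv-03. WDR3, another such factor, was at 9.62 to 32.8 and 12.1 to 28.0, and PIK3CB, a catalytic subunit of PI3 kinase, at 13.3 to 19.2 and 19.4 to 27.9. For PIK3CB the ranges did not overlap, with a difference of -0.38 ± 0.46 (interval -1.32 to 0.57).

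XPOT, the export receptor of tRNA, was at 44.9, 39.6 and 2.96 CPM with KB742 and at 23.8, 10.5 and 66.3 with KI-ARv-03. Its libraries within a compound differ more than the compounds do, and its call against DMSO (2.97 ± 0.81, limma adjusted p = 0.032) is lost without KB742 replicate 1 or 2 or KI-ARv-03 replicate 3 (adjusted p = 0.0787, 0.062 and 0.0806). SRRM1, a splicing coactivator, was at 2.96 to 9.02 and 6.86 to 12.4 CPM, against 0 to 1.16 with DMSO.

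P-TEFb itself and its partners were read in the list of 43 elongation genes, all tested. Between the compounds 0 of 43 were called, with a median difference of 0.00 (-0.02 over all genes). An interval within 2-fold was reached by 20 (46.5%, against 36% over all genes). That share depends on level, from 7.53% in the lowest tertile to 62.5% in the highest, and was not matched for it. Against DMSO by the mean of both compounds, 4 of 43 were higher and 3 lower (3.19% and 1.31% over all genes). CCNT1, the main cyclin of CDK9, was at 12.8, 14.5 and 14.1 CPM with KB742, at 9.69, 9.49 and 7.41 with KI-ARv-03 and at 14.9, 33.6 and 27.6 with DMSO. The compounds did not overlap for CCNT1, and the difference was 0.59 ± 0.32 (interval -0.07 to 1.25, limma adjusted p = 1). CDK9, the kinase both compounds target, was scarce, at 0.740 to 2.00, 0 to 1.05 and 2.76 to 3.86 CPM, a few reads per library. Both CCNT1 and CDK9 were lower than DMSO by the mean of both compounds (-1.06 ± 0.28, adjusted p = 0.026, and -1.20 ± 0.35, adjusted p = 0.046). MEPCE, which caps 7SK RNA, was lower too (-1.80, adjusted p = 0.0144).

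The elongation genes above DMSO were CTR9 and RTF1, which act with the PAF complex on elongating polymerase, ELL2, an elongation factor of the super elongation complex, and CDK19, a kinase of Mediator. CTR9 was at 37.2, 19.5 and 35.5 CPM with KB742, at 33.5, 19.5 and 51.5 with KI-ARv-03 and at 9.90, 10.0 and 6.45 with DMSO. Both compounds lay wholly above DMSO and overlapped each other. HEXIM1, which holds P-TEFb inactive, was at 5.01 to 9.21 and 4.74 to 10.3 CPM, and 1.84 to 5.57 with DMSO (0.84 ± 0.29, adjusted p = 0.095, not called). POLR2A, the large subunit of RNA polymerase II, was at 132 to 145, 105 to 137 and 53.4 to 90.4 CPM (0.80 ± 0.24, adjusted p = 0.056, not called), and CCNT2, a second cyclin of CDK9, at 2.505 to 2.96, 1.61 to 2.63 and 0.773 to 1.24. SUPT6H, a histone chaperone of elongation, was the 1 member with an unadjusted p under 0.05 between the compounds (0.95 on the log2 scale).

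Splicing kinases and SR-related genes had changes from DMSO in both directions: 7 of 32 tested were higher and 5 lower by the mean of both compounds (3.19% and 1.31% over all genes), and 0 were called between compounds. The higher ones were CLK2, SRRM1, CCNL2, CLK1, CCNL1, NKTR and SON. CCNL1, the sister cyclin of CCNL2, was at 16.0, 12.5 and 12.6 CPM with KB742, at 15.7, 8.43 and 15.7 with KI-ARv-03 and at 3.71, 3.86 and 3.68 with DMSO (difference 0.08 ± 0.37). CLK1, a kinase like CLK2, was at 3.51 to 4.44 and 5.27 to 9.28 CPM, which do not overlap, and the difference was -0.60 ± 0.64 (interval -1.91 to 0.71). The lower ones were RSRP1, PNISR, RBM39, LUC7L3 and DDX17. PNISR, an SR-related protein, was at 178, 163 and 242 CPM with KB742, at 151, 103 and 203 with KI-ARv-03 and at 681, 474 and 533 with DMSO (-1.72, adjusted p = 0.000131). DDX5, SRSF3 and SRSF1, the most abundant of the list, differed between compounds by -0.29 ± 0.31, -0.16 ± 0.27 and -0.49 ± 0.29.

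Of 21 androgen-responsive genes tested, 0 were called between compounds and 13 (61.9%) had an interval within 2-fold (36% over all genes). That share depends on level and was 62.5% in the highest tertile of all genes, so it does not set these genes apart. KLK3, the gene of prostate-specific antigen, was at 15.2, 6.01 and 24.4 CPM with KB742 and at 16.1, 20.6 and 15.2 with KI-ARv-03, against 33.4, 28.2 and 22.1 with DMSO. Its libraries with the compounds overlapped, and the change from DMSO was not called (-0.83 ± 0.39, adjusted p = 0.25). TMPRSS2, the membrane protease of that name, was at 2.40 to 4.51 and 3.23 to 4.22 CPM.

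Against DMSO 2 of the 21 androgen-responsive genes were called higher by the mean of both compounds and 0 lower (3.19% and 1.31% over all genes). They were ELL2 (0.98 with KB742 and 1.02 with KI-ARv-03) and SLC45A3, the prostein gene (0.85 and 1.45). The most abundant of them were ZBTB10, at 378 to 745 CPM with KB742 and 376 to 852 with KI-ARv-03, KLK4, at 239 to 807 and 121 to 941, and STEAP2, a metalloreductase, at 208 to 408 and 227 to 458. KLK4, with 61.3% GC in its last 300 bases, was highest in replicate 2 of both compounds, the libraries strongest in GC-rich genes. ZBTB10 (34.3% GC) and STEAP2 (25.7% GC) were lowest there. CCNL2 of the splicing list, at 40.3% GC, was also highest in replicate 2 of both compounds. The part of GC content in these library patterns was not tested. FOXA1 and HOXB13, the luminal pioneer factors, differed by -0.09 ± 0.35 and 0.03 ± 0.29. Of 18 luminal factors tested, TBX3 and GRHL2 were higher and ELF3 lower than DMSO (3.19% and 1.31% over all genes), and 0 were called between compounds. TBX3, a T-box repressor, fell from 269 ± 50.8 CPM at 0 h to 29.9 ± 1.99 with KB742, 26.6 ± 7.46 with KI-ARv-03 and 6.58 ± 2.35 with DMSO (SD, n = 3 each). KLF5, a Krüppel-like factor, was the member with an unadjusted p under 0.05 between compounds (1.10 on the log2 scale).

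MCL1, the short-lived anti-apoptotic protein, was at 39.6, 22.5 and 48.8 CPM with KB742, at 25.8, 8.43 and 24.3 with KI-ARv-03 and at 22.9, 47.5 and 28.6 with DMSO. KB742 minus KI-ARv-03 was 0.97 ± 0.40 (interval 0.14 to 1.79, limma adjusted p = 1), and the lowest KB742 library lies below the highest KI-ARv-03 library. At 0 h it was at 187 ± 48.3 CPM, and all groups at 8 h, DMSO included, were called lower. Of 18 apoptosis regulators tested, 0 were called between compounds or against DMSO. XIAP, an inhibitor of caspases, was at 68.8 to 104 and 93.8 to 98.0 CPM and BIRC5 (survivin) at 206 to 318 and 161 to 315. Their differences between compounds were -0.10 ± 0.24 and 0.23 ± 0.29. BAD, a pro-apoptotic member, ranged from 17.0 to 139 CPM with KI-ARv-03 alone, and its difference of 0.71 ± 0.67 is within that spread. MYC was at 1.48 to 3.60 and 0.527 to 1.24 CPM, too few reads to tell the compounds apart (0.64 ± 0.59).

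**Figure D4:**
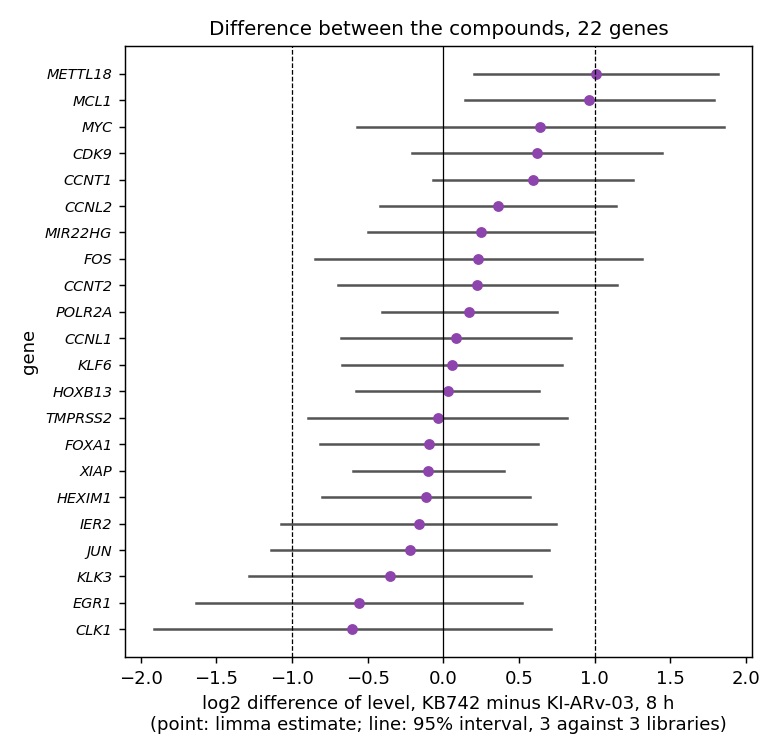
Log2 difference of level, KB742 minus KI-ARv-03 at 8 h (horizontal), for 22 genes of interest, with the limma estimate as a point and its 95% interval as a line, and dashed lines at 2-fold. The interval of 9 genes lies within 2-fold, and those of METTL18 and MCL1 leave out 0 before any adjustment.

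Immediate early genes, which growth signals switch on at once, were mixed against DMSO in both compounds. Of 26 tested, KLF6 and BTG1 were lower (1.31% over all genes), HES1 and SRF higher (3.19%), and 0 were called between compounds. KLF6, a zinc finger factor, was at 31.2, 25.05 and 51.8 CPM with KB742, at 46.0, 28.98 and 26.8 with KI-ARv-03 and at 153, 129 and 350 with DMSO (-2.47 ± 0.31, adjusted p = 1.3e-05). The compounds differed by 0.06 ± 0.35. MIR22HG, a host RNA of a microRNA, was at 6.01 to 14.0 and 5.797 to 9.89 CPM against 48.9 to 75.4 with DMSO, and differed by 0.25 ± 0.36. JUN and EGR1 were not called against DMSO, at 22.0 to 55.5 and 12.02 to 42.2 CPM with KB742 and 22.7 to 67.1 and 23.2 to 56.9 with KI-ARv-03. In both genes replicate 2 was the lowest library of each compound. FOS and IER2 stood at 3.23 CPM or less with either compound.

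The other fixed lists gave 0 calls between compounds as well, with 25 lists in all, of which 3 (basal, endothelial and immune markers) had no member tested. Cell cycle genes of G2/M held 6 of 27 above DMSO by the mean of both compounds (BUB1B, CCNA2, CENPE, HMMR, KIF20A and PLK1) and 0 below (3.19% and 1.31% over all genes), with a median of 0.57 against -0.02 over all genes. CCNA2, cyclin A2, was at 90.1, 30.1 and 68.8 CPM with KB742, at 73.9, 50.6 and 103 with KI-ARv-03 and at 26.0, 17.4 and 23.0 with DMSO, from 183 ± 33.9 at 0 h. Every compound library stood above DMSO and below the 0 h mean. Of 28 S-phase genes, CDC6 and UHRF1 were higher (3.19% over all genes). CDC6, which licenses replication origins, was at 11.2 ± 3.49 CPM with KB742, 15.9 ± 3.14 with KI-ARv-03, 3.06 ± 1.20 with DMSO and 79.0 ± 8.89 at 0 h.

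Of 23 p53 target genes tested, 3 were higher than DMSO and 3 lower (3.19% and 1.31% over all genes). The death receptor TNFRSF10B was at 16.4, 16.0 and 10.4 CPM with KB742, at 10.9, 16.3 and 16.9 with KI-ARv-03 and at 1.86, 5.41 and 0.921 with DMSO. Its groups with a compound lay wholly above DMSO (2.22, adjusted p = 0.000131). SESN2, GADD45A and PHLDA3 were the lower ones, and TP53INP1 and XPC the other higher ones. FAS, another death receptor, was at 2.40, 4.01 and 1.48 CPM with KB742 and at 0.807, 0.527 and 0.824 with KI-ARv-03. Those ranges do not overlap, but they rest on a few reads (difference 1.02 on the log2 scale, limma adjusted p = 1). Among 22 heat shock genes DNAJB1, a co-chaperone, was lower than DMSO with both compounds, at 13.1 ± 6.51 and 9.59 ± 4.98 against 82.4 ± 31.4 CPM. HSPA8, the constitutive HSP70, had the widest difference of that list (-1.59, limma adjusted p = 1), and it rests on KB742 replicate 3 at 0.740 CPM, 1 read, beside 23.6 and 36.1 in the others and 18.2, 47.4 and 46.1 with KI-ARv-03.

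Ribosomal protein genes (77 tested) and respiratory chain genes (61 tested) had medians of -0.12 and -0.03 between compounds, with 0 called and 0 at an unadjusted p under 0.05 in both. Their medians against DMSO were -0.57 and -0.43 with KB742 and -0.46 and -0.47 with KI-ARv-03, and of all these genes NDUFS5 was called, as lower. Genes of sterol and lipid synthesis had 3 of 24 higher than DMSO (HMGCS1 and INSIG1 among them, 3.19% over all genes). Their difference between compounds had a median of -0.10, with 16 of 24 intervals within 2-fold. Over all genes 36% were, and 62.5% in the highest tertile by level. Summed levels of neuroendocrine markers, ENO2 and SYP above all, spanned 168 to 662 CPM with KB742 and 111 to 738 with KI-ARv-03, with replicate 2 the highest of each compound, and the 3 markers were not called.

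The genes with the smallest p between the compounds are given by their values, since none passed the adjustment (adjusted p = 1 for all 10). IL1R1, the receptor of interleukin 1, was at 2.00, 0.501 and 0.740 CPM with KB742 and at 4.84, 5.27 and 8.24 with KI-ARv-03, against 3.09, 1.16 and 0.921 with DMSO. The ranges do not overlap, and the difference was -1.81 ± 0.41 (interval -2.65 to -0.97). TTC27, a tetratricopeptide protein, was at 20.02, 6.01 and 2.96 CPM against 21.4, 21.1 and 25.5 (-1.50 ± 0.39). Without KB742 replicate 1 it was the 1 gene called, at -2.17 with an adjusted p of 0.00948. ITSN2, an endocytic scaffold, TOE1, an RNA exonuclease, and GAB1, an adaptor of receptor kinases, were also higher with KI-ARv-03, by 1.10 to 1.52 on the log2 scale, at 0.501 to 8.41 CPM with KB742 and 4.74 to 11.1 with KI-ARv-03.

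In the other direction, MAGEE1, a MAGE family protein, was at 7.21, 11.5 and 8.14 CPM with KB742 and at 4.44, 0.527 and 3.71 with KI-ARv-03 (1.53 ± 0.38, interval 0.74 to 2.32). MTMR11, a myotubularin relative, was at 12.4, 17.0 and 11.8 against 5.25, 7.38 and 7.002 CPM (0.96 ± 0.29), with DMSO between them at 8.66 to 9.27. TNFAIP1, an adaptor of a ubiquitin ligase, CANT1, a calcium-activated nucleotidase, and ZNF689, a zinc finger protein, differed by 1.51, 1.27 and 1.27. All 10 genes are at 25.5 CPM or less in each of the 6 libraries.

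The difference between compounds was of like size at the earlier times. At 2 and 4 h 0 genes (0%) were called, with 232 (2.03%) and 156 (1.37%) at an unadjusted p under 0.05, and the median absolute difference was 0.24 and 0.23, beside 0.26 at 8 h. The change of the difference was called for 0 genes from 2 to 8 h (227, 1.99%, at an unadjusted p under 0.05) and for 0 from 4 to 8 h (285, 2.49%). The largest changes from 2 to 8 h by p were again in scarce RNAs. NHLRC3 was at 5.09, 6.24 and 5.37 CPM with KB742 and 2.51, 0.369 and 0.379 with KI-ARv-03 at 2 h, and at 2.40, 0 and 0 against 3.23, 1.05 and 1.65 at 8 h. Its difference moved by -2.72 ± 0.66 (limma adjusted p = 1). ZNF354A and IL1R1 moved the same way (-2.16 and -1.89), and EOMES, a T-box factor, RPS6KL1 and ZNF689 the other way (2.81, 2.11 and 1.80).

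Labelling was lower than DMSO with both compounds at many genes, and at no gene was it called different between them. Of 6806 genes with at least 20 reads in at least 2 libraries of each compound, 0 (0%) were called between KB742 and KI-ARv-03 (178, 2.62%, at an unadjusted p under 0.05; smallest adjusted p 0.201, limma). Against DMSO, 2739 of 6163 genes (44.4%) had a lower conversion level by the mean of both compounds and 0 (0%) a higher one. With KB742 alone 2161 of 6248 (34.6%) were lower, and with KI-ARv-03 2321 of 6313 (36.8%), beside 1 higher (0.0158%). The conversion of 6361 genes (93.5%) differed by less than 1 percentage point between compounds, with most of them near 0 in both: the median over genes was 0.253% with KB742, 0.228% with KI-ARv-03 and 0.908% with DMSO.

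Averaged over all reads, conversion was 0.393, 0.358 and 0.434% with KB742 and 0.415, 0.296 and 0.321% with KI-ARv-03, against 0.898, 1.29 and 1.49% with DMSO. The compounds overlapped and both lay below every DMSO library. The difference was 0.0511 percentage points (exact two-sided permutation p = 0.3, adjusted over 2 measures 0.3). With 3 against 3 libraries the smallest p is 0.1.

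Among fast-labelled genes the libraries of the compounds did not overlap. These were the 55 genes with a conversion of 20% or more with DMSO and at least 20 reads in all 9 libraries. Their median conversion was 8.60, 9.60 and 10.4% with KB742 and 6.54, 7.11 and 7.54% with KI-ARv-03, against 25.2, 29.4 and 31.0% with DMSO. The mean of these library medians was 2.46 points higher with KB742, with an exact two-sided permutation p of 0.1, the smallest the design allows (0.2 adjusted over the 2 measures). The threshold of 20% matters: at 10% (172 genes) the difference was 0.376 points (exact p = 0.5), and at 30% (22 genes) it was -0.585 (exact p = 0.7). Gene by gene the difference was smaller: KB742 was the higher in 35 of the 55 genes, with a median difference of 0.826 points. Over all 99 tested genes at 20% or more with DMSO, with fewer values allowed, it was 0.679 points.

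**Figure D5:**
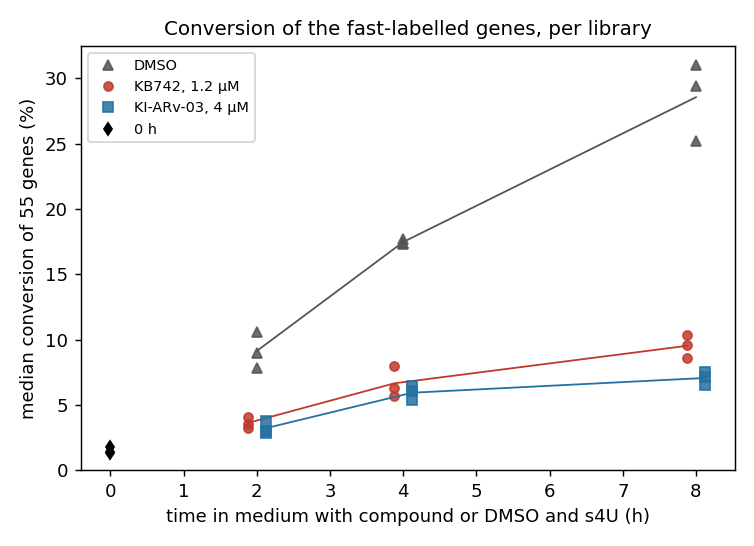
Median conversion in percent (vertical) of the 55 genes at 20% or more with DMSO at 8 h, by hours in medium with s4U and compound or DMSO (horizontal), 1 point per library and a line through the group means. At 8 h KB742 libraries lie at 8.60 to 10.4% and KI-ARv-03 libraries at 6.54 to 7.54%, and DMSO libraries at 25.2 to 31.0%.

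Some of these genes stayed labelled with either compound. JUN, a subunit of AP-1, was at 38.4, 53.2 and 44.0% with KB742, at 49.6, 42.3 and 46.1% with KI-ARv-03 and at 42.2, 45.1 and 41.3% with DMSO. EGR1, a zinc finger factor, was at 37.6, 41.6 and 30.6%, at 40.8, 32.3 and 33.0% and at 30.7, 34.2 and 36.4%. In both genes the 3 groups overlapped, and neither was called against DMSO (adjusted p = 0.43 and 0.66, limma). In 52 of the 55 genes the mean was below DMSO with both compounds. High DMSO values took part in choosing the 55 genes, which favors such a count, so it is a description. KLF6 kept 41.4% ± 1.96 with KB742 and 36.5% ± 8.95 with KI-ARv-03 (SD, n = 3) of conversion, against 51.1% with DMSO (adjusted p = 0.00085, limma). FOXA1, not one of the 55 genes since its DMSO mean was 17.0%, was at 11.8 to 17.6% with KB742 and 12.3 to 17.9% with KI-ARv-03. With DMSO it was at 14.1 to 22.1%.

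Other genes lost most of their labelling with both. ONECUT2, a luminal transcription factor, was at 2.89, 2.57 and 2.60% with KB742 and 2.42, 1.80 and 2.52% with KI-ARv-03, against 16.6, 18.1 and 21.1% with DMSO (adjusted p = 3.6e-17, limma). XIAP was at 0.124 to 0.217% and 0.123 to 0.441%, against 3.63 to 8.71%, though its level was not called. HOXB13 was not called, at 1.71 to 2.33%, 1.52 to 4.22% and 1.90 to 4.00%.

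The genes with the smallest p for conversion between compounds are given by their values. MAP2K7, the kinase MKK7 upstream of JNK, had the most reads of those higher with KB742 and 44 or more in each library. It was at 5.33, 6.48 and 7.99% with KB742, at 0.989, 3.26 and 3.13% with KI-ARv-03 and at 28.6, 29.4 and 32.7% with DMSO. The 3 groups did not overlap (limma adjusted p = 1). Its level was low with both compounds, at 23.6 to 34.8 and 18.1 to 23.8 CPM against 90.8 to 355 with DMSO. TOB2 was at 14.6, 22.7 and 17.2% with KB742 and at 9.66, 21.2 and 4.00% with KI-ARv-03, so it overlapped. POU2F1, the octamer factor OCT1, was at 3.18, 9.54 and 3.17% against 0.998, 0 and 0.842%, on 24 to 62 reads (limma adjusted p = 0.20).

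ZBTB33, the methyl-CpG binding factor Kaiso, UBL4A, a co-chaperone of tail-anchored proteins, and NUDT8, a Nudix hydrolase, were the other genes higher with KB742. ZBTB33 had 2 values a group, 5.12 and 3.34% against 0.350 and 0%, on 23 to 43 reads. Higher with KI-ARv-03 were KNSTRN, a kinetochore protein, CCDC107, TSC22D4, NT5C, a nucleotidase, and OARD1, a deacylase. NT5C had the most reads of them (91 to 173 in each library) and was at 0.104, 0 and 0.190% with KB742 against 0.731, 0.926 and 1.05% with KI-ARv-03, and 0.234 to 0.865% with DMSO. KB742 lay below both other groups, and KI-ARv-03 overlapped DMSO (limma adjusted p = 1). MCL1 was at 12.6, 9.27 and 16.4% with KB742 and, in the 2 libraries with enough reads, at 12.2 and 10.7% with KI-ARv-03, so its labelling overlapped.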

How the data were processed

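RNA of 22Rv1 cells was measured by SLAM-seq, which reads labelled RNA as T-to-C conversions in 3′-end libraries. Per the submitters' processing notes the build was hg19. Reads were mapped and conversions called with tools not given in the sources used here. The deposited table has 85618 rows over 50925 RefSeq identifiers, so an identifier can have several rows. Each row gives a signal, headed CPM, and a conversion as a fraction per library, per the file headers. A library's CPM summed to 1.07 to 1.28 times the nominal total in the 6 libraries. Of its values 100% were whole multiples of 1 read (tolerance 0.05). Reads were therefore recovered by the step, and an edgeR count test was run as an alternative. Rows that matched no gene symbol held 0.478% of reads, and 99.2% of 50925 identifiers matched. The row with the highest summed CPM stood for its gene, which gave 22383 genes. Other rows of the same gene or identifier were not used.

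Reads were rescaled by TMM factors (edgeR 4.0.16), turned into log2(CPM + 1) and tested with limma 3.58.1 (R 4.3.3, trended variances) in 1 fit of all 30 libraries and 10 groups, which share the estimate of spread. The filter was filterByExpr at a minimum count of 10. Calls needed an adjusted p under 0.05 (Benjamini-Hochberg, every gene tested). Log2 differences understate changes of scarce RNAs because of the pseudocount of 1. Conversion values on fewer than 20 reads were dropped, genes with 2 or more values a group were fitted with limma on the arcsine of the square root, and groups with no value were left out of a gene's fit. Means over libraries were compared by exact permutation. Reads without molecular identifiers are not independent molecules, and intervals cover the spread between libraries. The tests were tested on simulated data.

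The deposited unit is a signal, so the design named limma on a log scale, with count tests on recovered reads as alternatives. Genes were named by rule: the 5 with the smallest p in each direction between compounds for level and for conversion (none was called), the 8 furthest from DMSO in each direction by the mean of both compounds, the 3 most abundant members of 6 lists with 24 genes of interest (22 plotted), and the 3 with the largest change from 2 to 8 h in each direction by p. List members called against DMSO or with an unadjusted p under 0.05, the comparison with 0 h, the fast-labelled genes and the GC check (GENCODE release 29, last 300 bases) were added after values were seen. The members and gene lists were chosen with earlier results of these data known. The replicate numbers were checked for pairing: deviations of same-numbered libraries had correlations of 0.52, 0.81 and -0.23. Numbers 1 and 2 went together and number 3 did not, which does not settle whether the samples were paired. The main fit used no pairing, and a replicate block was run as an alternative. Promoters come from RefSeq (GRCh38.p14), all 4 genes matched, and no coordinate of hg19 is given. A few named genes are not reported here. DESeq2 1.42.0, Python 3.11.15, pandas 2.3.3, numpy 2.4.6 and matplotlib 3.10.9 did the rest.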

Additional observations from a re-analysis of the deposited data

How the results depend on the processing

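The count of 0 genes called for level between the compounds became 3 with no filter on low reads (ADAMTS5, ADTRP and SNORD117, at 3 reads or fewer in each of the 6 libraries) and ranged from 0 to 1 when each library was left out; the 1 was TTC27 without KB742 replicate 1. Genes at an unadjusted p under 0.05 rose from 240 to 1149 without KI-ARv-03 replicate 2 and to 1015 without KB742 replicate 1. Intervals within 2-fold covered 4117 genes, 7931 with no filter, 8491 with a pseudocount of 5, and 2351 (without KI-ARv-03 replicate 2) to 3782 when each library was left out. With the replicate block 0 genes were called (221 at an unadjusted p under 0.05), and replicate 3 of KI-ARv-03 did not go with its own number. Genes called against DMSO were 514, 818 with library-size scaling and 332 with edgeR, and 1 of those called was also called between compounds with no filter. The count of 0 for conversion held in each alternative run. The fast-labelled difference of 2.46 points was -0.585 at a threshold of 30%, whose cause was not tested. Over 1349 results of named genes under an alternative, XPOT lost its call against DMSO in 6 and SRRM1 in 1. Among the results other than the mean of both compounds against DMSO, 60 moved from the main value and 1 became stronger. Depth and the spread between libraries both limit the intervals: half-widths were 1.06 (log2) in the lowest tertile of genes and 0.67 in the highest.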

Other observations

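The fast-labelled genes were also read at the earlier times. Their median conversion was 1.50% ± 0.234 (SD, n = 3) at 0 h. At 2 h it was 3.62% ± 0.417 with KB742, 3.21% ± 0.473 with KI-ARv-03 and 9.12% ± 1.35 with DMSO. At 4 h it was 6.65% ± 1.22, 5.93% ± 0.538 and 17.5% ± 0.180. The libraries of the compounds overlapped at both times. Replicate 1 of KI-ARv-03 at 4 h stood apart over all reads, with a mean conversion of 1.18% beside 0.383 and 0.422% in the other replicates and 1.01 to 1.12% with DMSO. In the fast-labelled genes it was at 6.03%, between the other replicates at 5.35 and 6.41%. Without it 0 genes were called for conversion between the compounds at 8 h (241 at an unadjusted p under 0.05). With each compound the libraries at 8 h lay above those at 4 h.

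Among the 55 genes, conversion with the compounds spanned a wide range at like DMSO values. MED19, a Mediator subunit, was at 31.8% ± 0.850 with KB742, 33.3% ± 7.26 with KI-ARv-03 and 33.0% with DMSO, and TXNIP, a redox regulator, at 26.5% ± 1.01, 25.6% ± 0.786 and 27.6% (SD, n = 3). PPP2R2A, a regulatory subunit of PP2A, was at 3.44% ± 1.60 and 3.06% ± 2.00 against 36.7% with DMSO, and TMEM127, a membrane protein, at 3.22% ± 1.51 and 5.45% ± 2.02 against 33.6%. These 4 genes were chosen after their values were seen.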
